A study of Mus musculus with 384 samples.

Results

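The 5 genes described here, Cybb, Cyba, Ncf1, Ncf4 and Rac2, encode subunits of the phagocyte NADPH oxidase and were taken by name from the 46078 gene rows of the deposited count files. All 5 were present, and all 5 were among the 20324 genes with enough reads to be tested. They were measured in single granulocyte/macrophage progenitors (GMPs) of mouse bone marrow, sorted into 96-well plates and sequenced by the full-length SMART-seq2 method without molecular identifiers. The files hold 3 BCR-ABL sets, numbered 1, 2 and 4, and 1 Control set, with 96 wells each.

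The BCR-ABL mice were C57Bl/6 animals with the transgenes Scl-tTA and TRE-BCR/ABL, in which the Scl-tTA driver switches the BCR/ABL oncogene on once doxycycline is withdrawn. They were bred on 20 mg/L doxycycline in the drinking water, which was withdrawn at 5 weeks of age, and were analysed 5 to 6 weeks after induction of a CML-like myeloproliferative neoplasm. The Control mice were C57Bl/6 and were analysed at the same time. The protocol that covers all samples describes transgenes, breeding and doxycycline for the BCR-ABL mice and does not state them separately for the Control mice. Cells of both groups passed the same GMP gate, which was lineage-negative, c-Kit+, Sca-1-, CD34+ and FcγR+.

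In phagocytes the oxidase passes electrons from NADPH to oxygen and makes superoxide for killing microbes. Its membrane core, flavocytochrome b558, is the heterodimer of the proteins encoded by Cybb (gp91phox, which carries the electron path) and Cyba (p22phox, which stabilises it). On activation, cytosolic proteins, among them those of Ncf1 (p47phox, the organiser) and Ncf4 (p40phox, which binds a phagosome lipid), move to the membrane together with the GTPase Rac2. In humans, inherited loss of the Cybb, Cyba, Ncf1 or Ncf4 counterpart causes chronic granulomatous disease.

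The genes lie on 4 chromosomes of the mm10 assembly. Cybb (ENSMUSG00000015340) lies on chromosome X at 9435252-9487771, minus strand. Cyba (ENSMUSG00000006519) lies on chromosome 8 at 122424776-122432930 and Ncf1 (ENSMUSG00000015950) on chromosome 5 at 134220053-134229625, both on the minus strand. Ncf4 (ENSMUSG00000071715) lies on chromosome 15 at 78244801-78262580, plus strand, and Rac2 (ENSMUSG00000033220) on the same chromosome at 78559167-78572783, minus strand. Cyba overlaps Gm20388 and Ncf1 overlaps Gtf2ird2, each on the other strand. Whether the counting used strand is not known from the sources used here, so reads of each of these pairs may not have been told apart.

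RefSeq promoter sequences (GRCm38.p6) were matched for 3 of the 5 genes, Cybb, Cyba and Ncf1. They are shown side by side because both membrane subunits and the organiser act in 1 complex, while Cybb was the subunit most often missing from a cell. Each window covers 250 bases before and 50 bases from the annotated transcript start and is written along the gene's own strand. Capitals mark GAGGAA, the core letters bound by the myeloid factor PU.1, searched on both strands.
Cybb promoter, chrX:9469275-9469574, minus strand: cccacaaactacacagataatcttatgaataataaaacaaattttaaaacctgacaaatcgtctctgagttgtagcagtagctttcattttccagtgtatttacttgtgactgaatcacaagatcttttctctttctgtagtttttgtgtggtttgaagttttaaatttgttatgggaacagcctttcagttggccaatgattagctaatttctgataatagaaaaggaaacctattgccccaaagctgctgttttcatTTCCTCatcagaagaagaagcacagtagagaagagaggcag
Cyba promoter, chr8:122432891-122433190, minus strand: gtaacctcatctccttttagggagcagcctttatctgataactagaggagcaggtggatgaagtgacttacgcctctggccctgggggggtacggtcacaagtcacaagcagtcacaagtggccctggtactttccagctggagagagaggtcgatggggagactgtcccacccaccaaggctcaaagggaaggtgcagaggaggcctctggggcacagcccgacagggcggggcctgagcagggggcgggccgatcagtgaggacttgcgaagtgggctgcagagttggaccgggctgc
Ncf1 promoter, chr5:134229576-134229875, minus strand: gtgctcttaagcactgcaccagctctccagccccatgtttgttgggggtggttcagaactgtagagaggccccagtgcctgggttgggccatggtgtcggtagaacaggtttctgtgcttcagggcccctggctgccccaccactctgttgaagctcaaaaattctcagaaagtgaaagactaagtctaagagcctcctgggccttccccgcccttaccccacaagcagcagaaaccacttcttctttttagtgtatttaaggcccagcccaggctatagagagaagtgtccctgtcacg
The Cybb window held 1 match, read as TTCCTC on the printed strand and beginning 9 bases past the transcript start. The Cyba and Ncf1 windows held 0 matches. The same letters occurred in 28.3% of 32851 RefSeq mouse promoter windows of this length, so the match describes the window and shows no binding. The RefSeq transcript start of Cybb lies inside the longer gene model whose coordinates are given above.

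After removal of wells under 50000 gene reads or 1000 genes, 76, 61 and 92 cells remained in BCR-ABL sets 1, 2 and 4, and 94 in the Control set, 323 of 384 in all. The median depth of a set was 1200639.5 to 2084608 gene reads per cell. Kit and Fcgr3, genes of the gate, had 240.1 to 314.0 and 568.6 to 688.4 CPM (counts per 1000000 gene reads) in BCR-ABL cells, and 238.8 and 582.5 CPM in Control cells. Cd34 was at 146.0, 180.5 and 157.6 CPM in BCR-ABL sets 1, 2 and 4, and at 440.1 CPM in the Control set. Of the genes behind the lineage stain, Ptprc, which leukocytes share, had 197.3, 184.6 and 172.2 CPM in BCR-ABL sets 1, 2 and 4 and 178.6 CPM in the Control set. Itgam had 26.4, 20.3 and 25.2 CPM in the BCR-ABL sets and 23.5 CPM in Control cells. Cd3e, Cd4, Cd5, Cd8a, Ly6g and Ms4a1 had at most 1.02 CPM in any set. BCR-ABL set 4 stood apart in its eosinophil markers, whose 4 genes summed to 1257 CPM there, to 0.571 and 6.26 CPM in BCR-ABL sets 1 and 2, and to 3.77 CPM in the Control set. The 3 highest cells held 99.4% of those reads in set 4. For Prg2 and for Epx, the markers with most reads there, 1 cell alone held 99.4% of the reads of the gene. The sum thus does not describe the cells of set 4 at large. The results below are also given without that set where it changed a direction.

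All 5 subunit genes were active in these progenitors, at very different levels. Per kilobase of exon, Rac2 was highest at 360.2 ± 17.3 CPM per kb (mean ± SD, n = 3 BCR-ABL sets) and 425.1 CPM per kb in the Control set. Cyba followed at 259.5 ± 2.29 CPM per kb in the BCR-ABL sets and 230.7 CPM per kb in the Control set. Cybb, the catalytic subunit, was lowest in both groups, at 28.01 ± 10.3 CPM per kb in the BCR-ABL sets and 32.9 CPM per kb in the Control set. The order of the 2 cytosolic genes between them differed: Ncf1 stood above Ncf4 in the BCR-ABL sets (106.0 ± 13.96 and 81.5 ± 6.33 CPM per kb), whereas Ncf4 stood above Ncf1 in the Control set (206.2 and 82.3 CPM per kb). Each neighbouring pair in the BCR-ABL order differed in the same direction in all 3 sets. The Control order rests on 1 set, which gives no spread.

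Of the membrane subunits, Cybb differed most among the BCR-ABL sets and Cyba least. Cybb had 202.4, 192.0 and 93.6 CPM in BCR-ABL sets 1, 2 and 4, and 191.1 CPM in the Control set. Set 4 was low and the other 2 lay next to the Control set, so the groups overlapped. The fitted log2 fold change was -0.21 (SE 0.49), with an edgeR quasi-likelihood adjusted p of 0.981, and it turned to 0.08 without set 4. Cybb is X-linked, and Xist, the RNA that coats the inactive X of females, was at 323.9, 0 and 0.156 CPM in BCR-ABL sets 1, 2 and 4 and at 461.3 CPM in the Control set. Cybb was about equally high in set 1, with Xist, and in set 2, without it; the part of sex in the low value of set 4 was not tested. Cyba had 271.9, 267.2 and 269.8 CPM in BCR-ABL sets 1, 2 and 4, and 239.6 CPM in the Control set. All 3 BCR-ABL values lay above the Control value, by a log2 fold change of 0.19 (SE 0.13, edgeR adjusted p 0.825).

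Of the cytosolic subunits, Ncf4 showed the widest gap between the groups. Ncf4 had 173.4, 170.3 and 149.9 CPM in BCR-ABL sets 1, 2 and 4, and 416.6 CPM in the Control set. The BCR-ABL mean of 164.6 ± 12.8 CPM was 0.395 times the Control value, and every BCR-ABL set lay below it. The log2 fold change was -1.32 (SE 0.16), with an unadjusted p of 6.28e-04 and an edgeR adjusted p of 0.594. In the single cells the median was 145.8, 155.0 and 134.8 CPM in the BCR-ABL sets and 342.3 CPM in the Control set, so the lower level was spread over the cells and not held by a few. Even the upper quartile of the BCR-ABL cells, 226.4, 227.5 and 217.7 CPM in sets 1, 2 and 4, lay below the lower quartile of the Control cells, 237.3 CPM. Ncf1 had 350.4, 367.7 and 446.4 CPM in BCR-ABL sets 1, 2 and 4, and 301.3 CPM in the Control set. All 3 BCR-ABL values were above the Control value, by a log2 fold change of 0.38 (SE 0.17, edgeR adjusted p 0.752).

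Rac2, the GTPase that is largely restricted to blood cells, had 1123, 1062 and 1168 CPM in BCR-ABL sets 1, 2 and 4, and 1319 CPM in the Control set. All 3 BCR-ABL values were below the Control value, by a log2 fold change of -0.22 (SE 0.10, edgeR adjusted p 0.761). No subunit gene passed the test, and neither did any other gene: edgeR called 0 of 20324 genes (0%) at an adjusted p under 0.05, limma-voom called 0, and DESeq2 called 562 (2.77%). At an unadjusted p under 0.05, edgeR listed 1459 genes (7.18%) and 1 of the 5 subunits, Ncf4. DESeq2 called 1 of the 5 as well, again Ncf4, with an adjusted p of 1.99e-08. With a single Control set, which had to be assumed to vary like the BCR-ABL sets, an exact permutation over sets cannot go below p = 0.25. The share of all genes with all 3 BCR-ABL sets on 1 side of the Control set was not computed. Such a side is thus a description only, for the subunits above and in the classes of cells below. The labels do not say that sets came from separate animals, so the p-values measure only the spread between these sets.

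**Figure D1:**
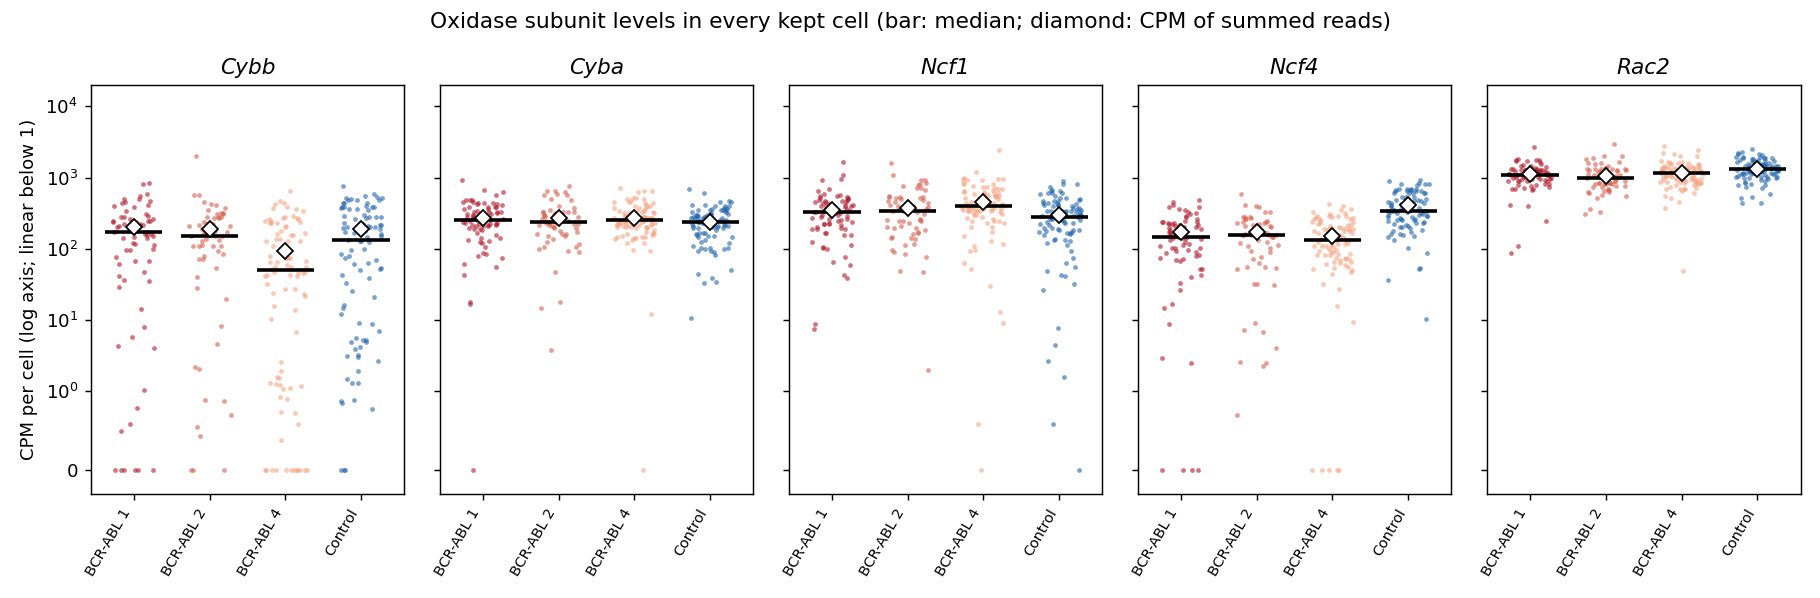
Level of each subunit gene in every kept cell (points, CPM on a log axis that is linear below 1) in BCR-ABL sets 1, 2 and 4 and the Control set, with the median over cells (bar) and the CPM of the summed reads (diamond). Ncf4 medians lie at 134.8 to 155.0 CPM in the BCR-ABL sets and at 342.3 CPM in the Control set, and Cybb has a separate group of cells near 0 in every set.

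The share of cells in which a subunit could be seen was compared after every cell was thinned to 674952 reads, which left 65, 54 and 81 cells in BCR-ABL sets 1, 2 and 4, and 90 Control cells. A gene was counted as seen at 10 reads or more. Rac2 was seen in 100% of cells in every set, and Cyba in 100% of cells of each BCR-ABL set and 98.9% of Control cells. Ncf1 was seen in 100%, 98.1% and 98.8% of cells in BCR-ABL sets 1, 2 and 4, and in 93.3% of Control cells. Ncf4 was seen in 96.9%, 92.6% and 93.8% of cells in BCR-ABL sets 1, 2 and 4, and in 98.9% of Control cells. These 4 genes were thus on in nearly every GMP of both groups.

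Cybb was the exception. It was seen in 80%, 83.3% and 65.4% of cells in BCR-ABL sets 1, 2 and 4, and in 72.2% of Control cells, and the groups overlapped. At 1 read the order was the other way, with 86.3 ± 6.38% of BCR-ABL cells (SD, n = 3) and 95.6% of Control cells. Cells with a trace of Cybb, between 1 and 9 reads, thus made up more of the Control set. At 50 reads, Ncf4 was seen in 78.1 ± 1.75% of BCR-ABL cells (SD, n = 3) and 95.6% of Control cells. In the 61 wells that were left out for low depth, the median count of Cybb, Cyba and Ncf1 was 1 read each and that of Ncf4 was 0.

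All 5 genes were seen together in 78.5%, 75.9% and 61.7% of cells in BCR-ABL sets 1, 2 and 4 (95% exact binomial intervals 66.5 to 87.7%, 62.4 to 86.5% and 50.3 to 72.3%), and in 70% of Control cells (59.4 to 79.2%). The BCR-ABL mean of 72.04 ± 9.02% differed from the Control value by less than the spread between the BCR-ABL sets. Intervals here cover counting error only. The most common incomplete combination was the 4 genes without Cybb, in 18.5%, 14.8% and 32.1% of cells in BCR-ABL sets 1, 2 and 4, and in 21.1% of Control cells. Cells missing Ncf4 alone made up 1.54%, 5.56% and 3.70% of the BCR-ABL sets and 0 of the 90 Control cells (exact interval up to 4.02%). Cells missing Ncf1 alone made up 2.22% of the Control set and 1.85% of BCR-ABL set 2.

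**Figure D2:**
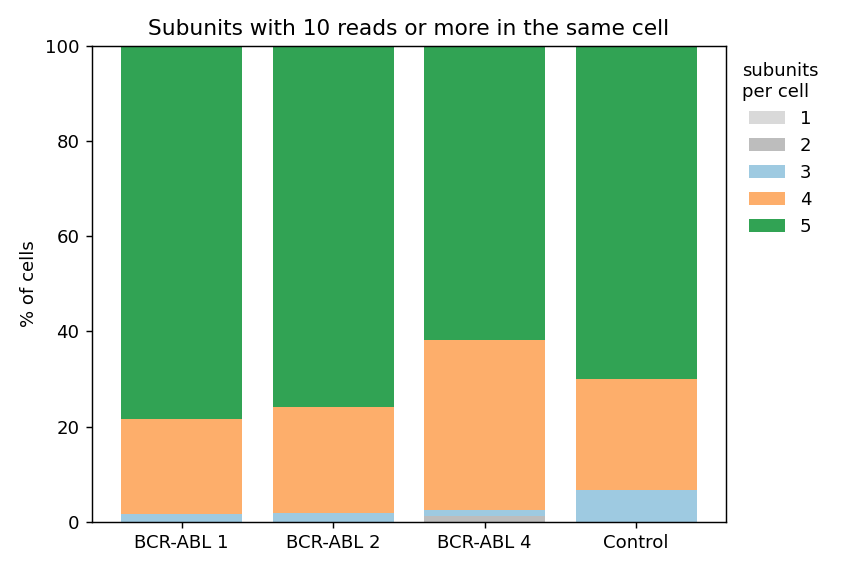
Percentage of cells (vertical axis) by the number of the 5 subunit genes with 10 reads or more in the same cell, in BCR-ABL sets 1, 2 and 4 and the Control set, at equal depth. All 5 were seen together in 61.7% to 78.5% of BCR-ABL cells and 70% of Control cells, and no cell had fewer than 2.

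Cells with and without Cybb differed in other readouts. Irf8, the transcription factor that drives monocyte and dendritic fate and is known to act on Cybb, was seen in 50%, 77.8% and 22.6% of the Cybb-positive cells of BCR-ABL sets 1, 2 and 4, and in 96.9% of those of the Control set. Among Cybb-negative cells it was seen in 7.69%, 11.1% and 7.14% in BCR-ABL sets 1, 2 and 4, and in 64% in the Control set. Cybb-positive cells thus held Irf8 more often in all 4 sets. Many Cybb-positive BCR-ABL cells nevertheless lacked Irf8 at this depth. Cyba, Ncf1, Ncf4 and Rac2 were each higher in the Cybb-positive cells of every set. For Rac2 the Control values were nearly equal, at 1322 CPM in Cybb-positive and 1319 CPM in Cybb-negative cells. Ncf1 had 369.3, 412.4 and 525.5 CPM in Cybb-positive and 324.6, 153.9 and 339.3 CPM in Cybb-negative cells of BCR-ABL sets 1, 2 and 4. In the Control set it had 337.8 CPM in Cybb-positive and 216.6 CPM in Cybb-negative cells. The median gene number was also higher in the Cybb-positive cells of every set, and its part in these differences was not tested.

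The order in which the subunits came on was read along 2 axes built from other genes: a neutrophil axis (primary and late granule genes) and a monocyte axis (Irf8, Csf1r, Ly86 and 10 others), each less the early progenitor genes. None of the 5 genes is in either axis. Cyba, Ncf1, Ncf4 and Rac2 were already seen in over 50% of cells of the lowest of 3 bins on both axes in every set. On the monocyte axis Cybb was seen in 59.1%, 46.7% and 51.2% of cells of the lowest bin in BCR-ABL sets 1, 2 and 4, and in 26.3% of Control cells there. In the middle bin it was seen in 84%, 94.7% and 77.1% of BCR-ABL cells and 82.4% of Control cells, and in the highest bin in 100% of each BCR-ABL set and 85.2% of the Control set. Cybb was thus the subunit least often seen in the lowest bin of this axis in every set. In the lowest bin every BCR-ABL set lay above the Control set, but the Control value rests on 19 cells, with an exact interval of 9.15 to 51.2% that holds the value of set 2. At 1 read, Cybb was seen in 77.3%, 73.3% and 65.9% of cells of this bin in BCR-ABL sets 1, 2 and 4, and in 78.9% of Control cells, so the order of the groups rests on the limit. The bin in which Cybb first reached 50% of cells moved likewise. With 3 bins and 10 reads it was the lowest in BCR-ABL sets 1 and 4 and the middle in BCR-ABL set 2 and the Control set. At 1 read it was the lowest bin in every set, and at 50 reads the lowest, middle and highest in BCR-ABL sets 1, 2 and 4 and the highest in the Control set. With 5 bins it was the second in every set.

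On the neutrophil axis Cybb was seen in 55.6%, 63.2% and 52.6% of cells of the lowest bin in BCR-ABL sets 1, 2 and 4, and in 66% of Control cells. In the middle bin the shares were 83.9%, 83.3% and 57.1% in BCR-ABL sets 1, 2 and 4, against 84.4% of Control cells. In the highest bin they were 84%, 100% and 75.6% of the BCR-ABL sets, against 62.5% of the 8 Control cells. Each BCR-ABL set lay below the Control set in the lower 2 bins and above it in the highest. In the middle bin, however, sets 1 and 2 lay next to the Control value, and the highest Control value rests on 8 cells. This order was not tested. Bins held as few as 9 BCR-ABL cells on this axis and 5 on the monocyte axis. The median position of the cells themselves differed between groups: on the neutrophil axis it was 0.07, 0.11 and 0.37 in BCR-ABL sets 1, 2 and 4 and -0.38 in the Control set, and on the monocyte axis -0.18, 0.12 and -0.38 in BCR-ABL cells, against 0.56 in Control cells. Over all kept cells, all 13 monocyte axis genes had a negative fold change and all 14 primary granule genes a positive one. Of the 11 late granule genes tested 10 were positive, and of the 10 early progenitor genes 6 were negative and 4 positive. Among all 20324 genes tested, 9305 had a negative fold change.

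Ncf4 was lower in the BCR-ABL cells wherever the cells stood on the axes. On the neutrophil axis its mean in the lowest bin was 119.2, 122.4 and 128.7 CPM in BCR-ABL sets 1, 2 and 4, and 371.9 CPM in the Control set. In the highest bin it was 196.4, 208.7 and 178.4 CPM in the BCR-ABL sets and 431.5 CPM in the Control set. In 9 of 9 comparisons of a BCR-ABL set with the Control set in the same bin the BCR-ABL mean was lower, at 0.28 to 0.484 times the Control mean. The same held in 9 of 9 comparisons on the monocyte axis, at 0.297 to 0.618 times the Control mean. Rac2 was lower in 9 of 9 comparisons on the neutrophil axis and in 7 of 9 on the monocyte axis, whereas Cyba was lower in 6 of 9 and 2 of 9. Cybb was lower in 7 of 9 and 3 of 9, and Ncf1 in 4 of 9 and 2 of 9. Each Control mean served for every BCR-ABL set, so the 9 comparisons are not independent. The share of all genes that reach 9 of 9 was not computed.

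**Figure D3:**
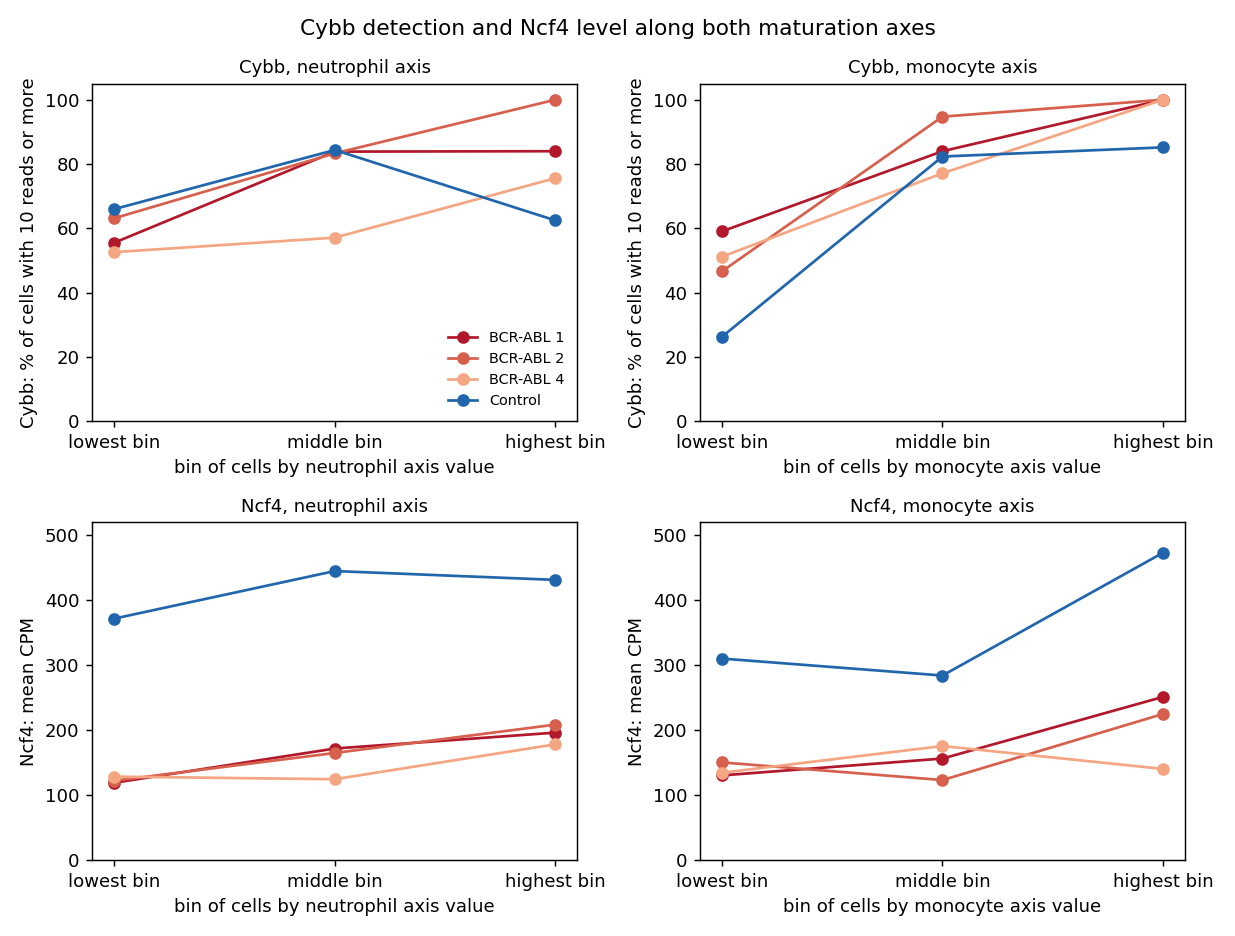
Percentage of cells with Cybb (upper panels) and mean Ncf4 level in CPM (lower panels) in 3 bins of cells along the neutrophil axis (left) and the monocyte axis (right), in BCR-ABL sets 1, 2 and 4 and the Control set. Ncf4 in the BCR-ABL sets lies below the Control set in every bin, and Cybb in the lowest monocyte bin is at 46.7% to 59.1% of BCR-ABL cells and 26.3% of Control cells.

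Because the share of cells with Irf8 differed so much between groups, the subunits were also compared within cells with Irf8 and within cells without it. Cells with 10 or more Irf8 reads at equal depth numbered 27, 36 and 14 in BCR-ABL sets 1, 2 and 4, and 79 in the Control set. In these cells Ncf4 had 207.4, 179.2 and 127.8 CPM in the BCR-ABL sets and 429.0 CPM in the Control set, a log2 fold change of -1.29 (SE 0.30, unadjusted p 0.00949, edgeR adjusted p 0.901). Every BCR-ABL set was again below the Control set. Rac2 had 1052, 1010 and 976.1 CPM in the BCR-ABL sets and 1308 CPM in the Control set, a log2 fold change of -0.34 (SE 0.11, edgeR adjusted p 0.901). Cybb had 263.2, 222.8 and 128.3 CPM in the BCR-ABL sets and 214.1 CPM in the Control set, with the Control set inside their range. The log2 fold changes of Cybb, Cyba and Ncf1 were -0.03 (SE 0.44), 0.02 (SE 0.18) and 0.09 (SE 0.21). The groups were not alike within this class either. Irf8 itself had a log2 fold change of -1.26. Of the 13 monocyte axis genes, Irf8 included, 12 were negative and 1 positive (median -1.36, beside 0.02 over all genes). The part of this in the subunit differences was not tested. In this class edgeR and limma-voom each called 0 of 18024 genes, edgeR listed 941 (5.22%) at an unadjusted p under 0.05, with 2 of the 5 subunits (Ncf4 and Rac2), and DESeq2 called 255 (1.41%), with Ncf4 at an adjusted p of 0.00664.

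Cells without Irf8 numbered 38, 18 and 67 in BCR-ABL sets 1, 2 and 4, and 11 in the Control set. Cybb had 142.3, 102.1 and 80.8 CPM in the BCR-ABL sets and 23.1 CPM in the Control set. All 3 BCR-ABL sets were above the Control set, by a log2 fold change of 2.27 (SE 0.45, unadjusted p 0.00544, edgeR adjusted p 0.127). Of these cells, 68.4%, 55.6% and 61.2% of BCR-ABL sets 1, 2 and 4 had Cybb, against 2 of the 11 Control cells (18.2%, exact interval 2.28 to 51.8%). A single cell gave 67.5% of the Cybb reads of the Control class, and without that cell the log2 fold change was 3.73 (edgeR adjusted p 0.0952). This exclusion was chosen after the values were seen. The cell was picked as the Control cell with the most Cybb reads, and it held 10.5% of all gene reads of the class. Its removal could therefore only raise the fold change of Cybb, so the second value is no check on the first.

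The 11 Control cells without Irf8 also differed from the BCR-ABL cells of the class in markers of other lineages. The 6 basophil and mast cell markers summed to 545.9, 1860 and 291.3 CPM in BCR-ABL sets 1, 2 and 4 and to 3189 CPM in the Control set, where 1 cell gave 78.2% of the reads. All 6 had a negative log2 fold change (median -1.93). The 6 erythroid markers summed to 1.13, 45.3 and 1.73 CPM in BCR-ABL sets 1, 2 and 4 and to 113.1 CPM in Control cells, again with all 6 negative (median -3.99). Of these reads, 1 cell held 82.8% in the Control set, and 1 cell held 93.8% in BCR-ABL set 2. Of the 7 macrophage markers 6 were negative, and their sums were 54.9, 49.1 and 123.4 CPM in BCR-ABL sets 1, 2 and 4, against 58.5 CPM in Control cells. Here 1 cell held 63.2% of the macrophage marker reads of the Control set, and 1 cell held 84.9% of those of BCR-ABL set 2. The 10 early progenitor genes summed to 407.3, 751.8 and 430.4 CPM in BCR-ABL cells and to 1379 CPM in Control cells. Of the 9 tested, 7 had a negative and 2 a positive log2 fold change (median -0.744), with Meis1 at -2.27. Of the 12 monocyte axis genes tested, 8 had a positive and 4 a negative log2 fold change (median 0.577), with Csf1r at 1.68 and F13a1 at 4.4. The part of these markers in the Cybb and Ncf1 differences was not tested.

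Ncf1 in the cells without Irf8 had 344.5, 376.7 and 493.1 CPM in BCR-ABL sets 1, 2 and 4, and 165.6 CPM in the Control set, a log2 fold change of 1.32 (SE 0.25, edgeR adjusted p 0.126). A single cell gave 40.8% of the Ncf1 reads of the Control class. The log2 fold change was 1.91 without the Control cell with the most Cybb reads, and 2.49 by limma with every cell weighted equally (adjusted p 0.120). Ncf4 had 144.1, 150.4 and 157.0 CPM in the BCR-ABL sets and 353.1 CPM in the Control set, a log2 fold change of -1.20 (SE 0.14, edgeR adjusted p 0.115). The Ncf1 and Ncf4 differences had opposite signs. Cyba had a log2 fold change of 0.41 (SE 0.16), which was 1.11 with every cell weighted equally (limma adjusted p 0.132), and 1 cell gave 44.2% of its Control reads here. That of Rac2 was -0.12 (SE 0.09). In this class the median log2 fold change of all genes was itself 0.27, edgeR and limma-voom each called 0 of 17367 genes, and edgeR listed 3438 (19.8%) at an unadjusted p under 0.05. Of the 5 subunits 3 were so listed, Cybb and Ncf1 higher and Ncf4 lower, and DESeq2 called the same 3 among 2584 genes (14.9%).

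The difference between the classes was tested in 1 fit over both, added after the values were seen. The effect on Cybb in cells with Irf8 minus that in cells without it was -2.33 on the log2 scale (SE 0.27, unadjusted p 6.10e-04, edgeR adjusted p 0.212), and that on Ncf1 was -1.22 (SE 0.39, edgeR adjusted p 0.340). For Ncf4 it was -0.12 (SE 0.36, edgeR adjusted p 0.970), an estimate near 0 with an error that allows either sign. Here edgeR called 0 of 19374 genes and listed 2485 (12.8%) at an unadjusted p under 0.05, with 2 of the 5 subunits, Cybb and Ncf1. The median log2 difference of all genes in this fit was -0.28.

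**Figure D4:**
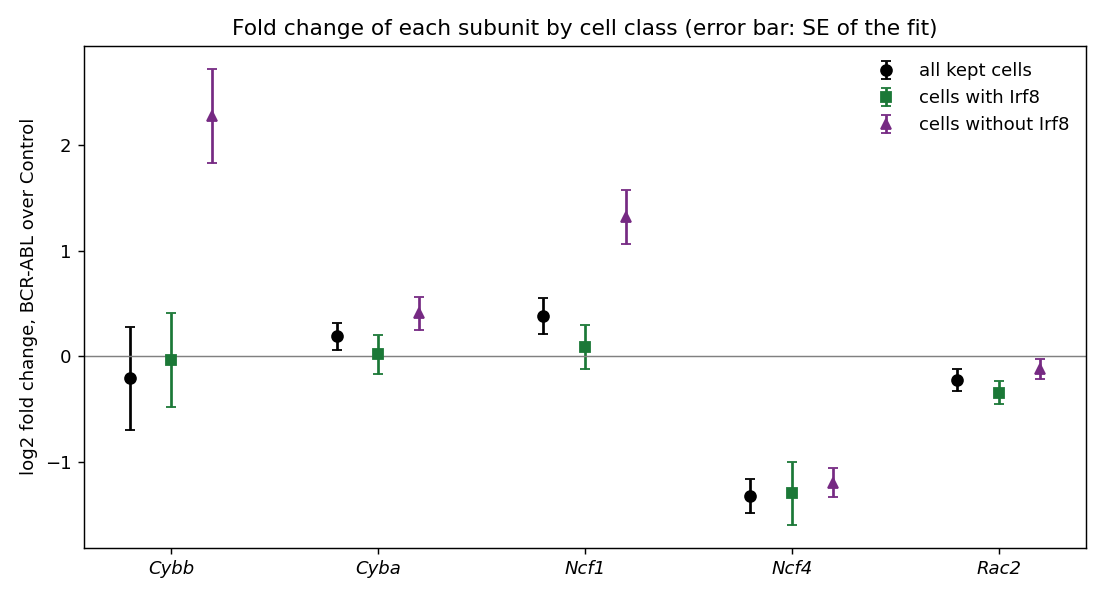
Fitted log2 fold change, BCR-ABL over Control, of each subunit gene in all kept cells, cells with Irf8 and cells without Irf8 (points; error bars are the SE of the edgeR fit over 3 BCR-ABL sets and 1 Control set). Ncf4 lies between -1.32 and -1.20 in all 3, whereas Cybb is at -0.03 with Irf8 and 2.27 without.

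The balance of the 2 cytosolic genes was also read inside each cell, where both genes share 1 depth. The ratio of Ncf4 to Ncf1 reads per kb, over the summed reads of all kept cells, was 0.898, 0.84 and 0.609 in BCR-ABL sets 1, 2 and 4, and 2.51 in the Control set. Ncf4 exceeded Ncf1 per kb in 38.5%, 46.3% and 22.2% of cells of the BCR-ABL sets, and in 85.6% of Control cells. The BCR-ABL mean was 35.7 ± 12.3% (SD, n = 3). This ratio was chosen after the levels of both genes were seen, so it restates their difference cell by cell and was not tested.

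**Figure D5:**
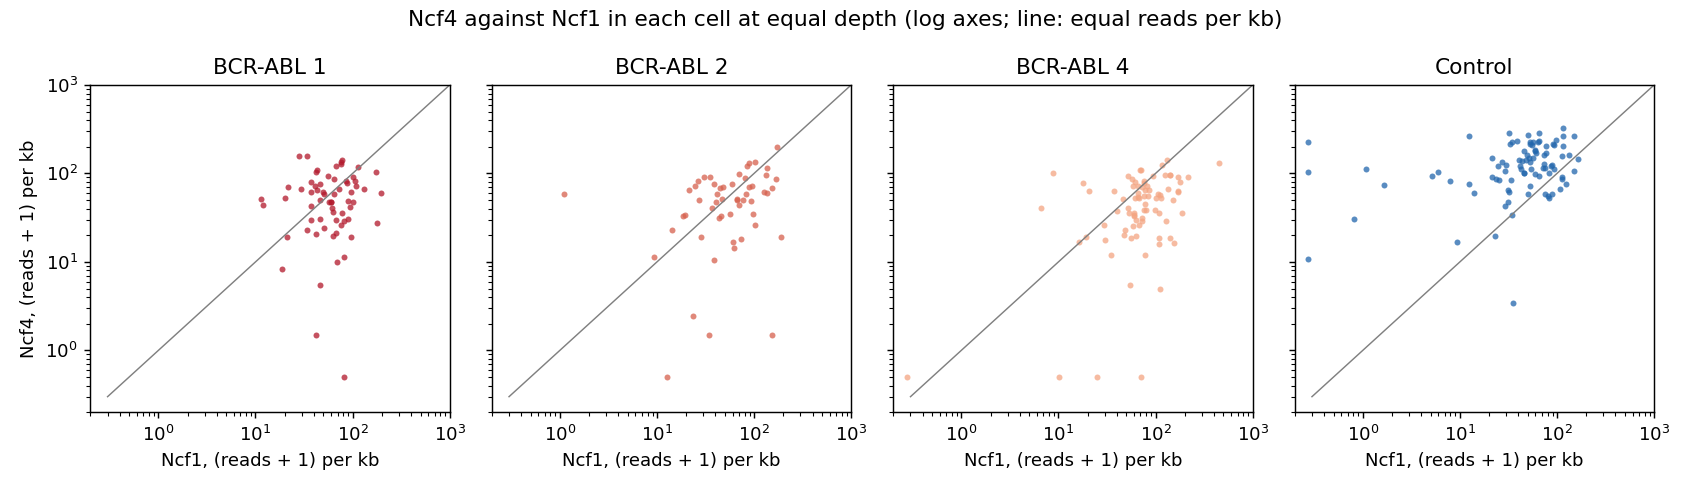
Ncf4 against Ncf1 in each cell, as reads plus 1 per kb at equal depth (log axes), in BCR-ABL sets 1, 2 and 4 and the Control set, with the line of equal values. Ncf4 exceeded Ncf1 in 22.2% to 46.3% of cells of the BCR-ABL sets and in 85.6% of Control cells.

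Among cells of a set the subunits varied together only loosely. Spearman's rho between the subunits over the cells of a set, given as a description at equal depth, was highest on average for Cybb and Ncf1 (0.25, 0.44 and 0.36 in BCR-ABL sets 1, 2 and 4, 0.31 in the Control set). It was lowest for Cybb and Rac2 (0.05, 0.05 and 0.18 in the BCR-ABL sets, -0.03 in the Control set). Ncf1 and Rac2 had 0.31, 0.37 and 0.50 among BCR-ABL cells and 0.00 among Control cells. Along the axes, the highest mean rho over the 4 sets was that of Cybb with the monocyte axis (0.49, 0.49 and 0.35 in the BCR-ABL sets, 0.57 in the Control set). For Ncf1, rho with the neutrophil axis was 0.39, 0.60 and 0.41 in BCR-ABL sets 1, 2 and 4 and 0.04 in the Control set, and rho with the monocyte axis was 0.30, 0.53 and 0.21 in BCR-ABL cells and 0.45 in Control cells. These differences were not tested, and few Control cells lay high on the neutrophil axis. The points of each rho share a library and its depth.

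The genes most like each subunit, by mean rho over the 4 sets among 8419 genes, mostly differed between the subunits, with Hp, Ly6c2 and Fcnb shared. For Cybb they were F13a1 (0.45), Hp, Ly6c2, Clec5a and Ly6c1, which are known from monocytes and granulocyte precursors. For Cyba they were the actin-binding thymosin Tmsb4x (0.51), Sh3bgrl3, Wfdc21, Sem1 and S100a11. For Ncf1 they were the ficolin Fcnb (0.40), Rps6ka1, Pram1, Ly6c2 and Unc93b1. The mean of Fcnb rests on the BCR-ABL sets, with rho 0.36, 0.63 and 0.55 in sets 1, 2 and 4 and 0.07 in the Control set. For Ncf4 they were Chil3 (0.32), the lysosomal membrane protein Lamp1, Hp, the PU.1 gene Spi1 and Sorl1. For Rac2 they were S100a8 (0.39), Hmgn2, Fcnb, the neutrophil elastase gene Elane and Ptgs1.

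Of the other genes needed to assemble the oxidase, 6 of 6 were tested and 0 passed the edgeR adjusted test. Of these, 4 had a positive and 2 a negative log2 fold change, with a median of 0.09 beside 0.05 over all genes. Hvcn1, the proton channel that offsets the charge moved by the oxidase, had 63.6, 53.4 and 57.5 CPM in BCR-ABL sets 1, 2 and 4, and 40.5 CPM in the Control set (log2 fold change 0.54, SE 0.20, edgeR adjusted p 0.684). The log2 fold changes of the GTPases were -0.36 for Rac1, 0.25 for Rap1b and -0.17 for Rap1a. Of the other Nox and Duox family list, 4 of 10 genes were tested and 0 passed. Nox1, Nox3 and Noxo1 were each under 1 CPM in every set, and so was the GTPase Rac3.

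Of 20 genes that signal to the oxidase, 11 had a positive and 9 a negative fold change, and 0 passed the adjusted test. Prex1, an exchange factor that loads Rac with GTP, had 36.6, 34.5 and 36.6 CPM in BCR-ABL sets 1, 2 and 4, and 68.5 CPM in the Control set (log2 fold change -0.91, edgeR adjusted p 0.616). Prkcd, the protein kinase C delta gene, had 192.2, 209.0 and 194.1 CPM in the BCR-ABL sets and 296.4 CPM in the Control set (log2 fold change -0.56, edgeR adjusted p 0.637). Prkcb, for the beta isoform that can phosphorylate p47phox, had 40.8, 31.5 and 79.3 CPM in the BCR-ABL sets and 10.4 CPM in the Control set (log2 fold change 2.29, edgeR adjusted p 0.646). These 3 genes were named for the smallest p of their list. The exchange factor Vav2 had a log2 fold change of -0.78.

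Of 10 transcription factors known to act on oxidase genes, 5 had a positive and 5 a negative fold change, and 0 passed. Irf8 had 258.5, 421.5 and 62.4 CPM in BCR-ABL sets 1, 2 and 4, and 990.0 CPM in the Control set (log2 fold change -1.97, SE 0.93, edgeR adjusted p 0.761). The granulocyte factor Cebpe had 56.6, 54.5 and 73.3 CPM in the BCR-ABL sets and 29.2 CPM in the Control set (log2 fold change 1.09, edgeR adjusted p 0.624). The log2 fold changes of Hoxa9 and Runx1 were 1.14 and -0.49. Spi1 had 404.5, 430.9 and 427.3 CPM in the BCR-ABL sets and 428.8 CPM in the Control set, which lay inside their range. Of 15 genes that handle peroxide and superoxide, 8 had a positive and 7 a negative fold change, and 0 passed. Gclm, the modifier subunit of glutathione synthesis, had 222.0, 164.8 and 152.2 CPM in the BCR-ABL sets and 78.99 CPM in the Control set (log2 fold change 1.21, edgeR adjusted p 0.637). Sod1, Gsr and Prdx6 had log2 fold changes of -0.41, 0.49 and 0.31.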

How the data were processed

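Single GMPs of BCR-ABL sets 1, 2 and 4 and of the Control set were sequenced by SMART-seq2. The authors aligned reads with GSNAP to mm10 and counted them per gene with HTSeq 0.5.3p3, per the submitters' processing notes. For the annotation release, strand setting and read filters, the entry is: not given in the sources used here. The deposited values are raw read counts per gene and well. Of all reads, 44.9% were on genes, 40.9% not aligned, 7.67% on no feature, 6.24% ambiguous and 0.265% on spike-ins, and only gene rows entered library sizes. Gene identifiers were matched to GENCODE for 45143 of 46078 rows.

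Wells under 50000 gene reads or 1000 genes were left out, and no 2 wells had identical counts. No doublet caller was run, since cells were sorted singly. Counts were summed per set, since cells are not replicates, and tested with edgeR 4.0.16 (quasi-likelihood, TMM factors, low-count filter, Benjamini-Hochberg adjustment over all genes) in R 4.3.3, with DESeq2 1.42.0 and limma 3.58.1 as alternatives. The SE of a fold change is its size over the root of the F statistic. Shares and rho values used cells thinned to 674952 reads, which left out 33 of 323 kept cells. Intervals are exact Clopper-Pearson at 95% and cover counting error only, since reads without molecular identifiers are not independent molecules. Axis values are mean standardised log expression of the listed genes less that of the early progenitor genes, and bins hold equal numbers of cells over all sets.

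The subunits, gene lists and axes were chosen with earlier results of these data known. All 5 subunits are named, with up to 4 genes of smallest p per pathway list and the 5 genes of highest mean rho per subunit. Spi1, Xist, the gate genes and the eosinophil markers are named outside that rule.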

Additional observations from a re-analysis of the deposited data

Results flagged for a closer look

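In the 61 wells left out of all comparisons, 11 held 10 reads or more of a subunit gene, and 3 of these held as many of a subunit other than Rac2. The highest count was 86 Ncf1 reads, in 1 of the 20 left-out wells of BCR-ABL set 1. It is above the 3 reads that a count of 0 allows, a bound for a single well and not for the highest of 61. Only 2 Control wells were left out, so their highest Ncf1 count of 4 reads is no like comparison.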

How the results depend on the processing

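Ncf4 had a negative log2 fold change under all 10 alternatives in all kept cells (-1.73 to -1.25, adjusted p 1.99e-08 by DESeq2 to 0.922), and under all 9 in each Irf8 class. The number of genes past the adjusted threshold, 0 by edgeR in each comparison, was 562, 255 and 2584 by DESeq2 in all kept cells, cells with Irf8 and cells without it, 2 with every cell weighted equally in all kept cells, and 0 with any BCR-ABL set left out. Cybb ranged from -0.407 to 0.0767 in all kept cells with a BCR-ABL set left out in turn, changing sign without replicate 4. In cells with Irf8 it ranged from -0.264 to 0.224, again changing sign without replicate 4, and it changed sign at an Irf8 limit of 50 reads, which drops set 4 (0.28), and with every cell weighted equally (0.53), an alternative added for both Irf8 classes after the data were seen. Cyba ranged there from -0.0627, without replicate 2, to 0.10, and the first is a change of sign. The cause was not tested.

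Differences in the share of cells, BCR-ABL minus Control, depended on the limit and on thinning. At a limit of 1 read they were -9.23 points for Cybb, 0 for Cyba, 2.92 for Ncf1 and -8.94 for all 5 together, against 4.03, 1.11, 5.64 and 2.04 at 10 reads. At 50 reads they were 3.89 for Cyba, 8.81 for Ncf1 and -17.4 for Ncf4, against -4.44 at 10 reads. Without thinning they were -4.12 for Cyba, 2.19 for Ncf1, -8.44 for Ncf4 and -0.80 for Rac2, and the sign turned for Cybb (-0.491) and for all 5 together (-4.22), which was also negative at 50 reads (-1.58). With each BCR-ABL set left out in turn, the share with all 5 ranged from -1.17 to 7.19 points and that with Cybb from 0.494 to 9.44. An Irf8 limit of 1 read left no Control cell without Irf8 and could not be used. No paired analysis was possible because the Control set is single and shares fewer than 2 replicate numbers with the BCR-ABL sets.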
